A study of Homo sapiens and Mus musculus with 6 samples.

Results

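The promoters of 10 imprinted genes, *H19*, *Igf2*, *Kcnq1*, *Dlk1*, *Meg3*, *Peg10*, *Peg3*, *Grb10*, *Igf2r* and *Snrpn*, were followed through the Promoter Capture Hi-C (CHi-C) calls of mouse embryonic stem cells (mESCs). A call was kept when a fragment at either end, the bait or the other end, carried a member's symbol. In mESCs, 84 of 101841 calls were kept, covering 71 fragment pairs and 7 of the 10 genes. The same symbols, ignoring case, took 41 of 92929 calls and also 7 of the 10 genes in GM12878 cells. Of all annotated protein-coding symbols, 63.5% had a call in mESCs and 65.4% in GM12878 cells, a share that leaves out noncoding genes such as *H19* and *Meg3*.

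CHi-C joins DNA ends that lie close together in fixed nuclei, cut here with *Hin*dIII, and then enriches the fragments that hold promoters ("baits"). The mESCs were of the J1 line (strain 129S4/SvJae), expanded on fibroblast feeders that were removed before fixation, and GM12878 is an established human B-lymphocyte line. The mESCs gave 2 biological replicates of CHi-C and 1 Hi-C library without capture, and GM12878 cells gave 3 replicates of CHi-C, all untreated. The replicates of a cell type were called jointly, so each call has 1 score and 1 read value, the spread between replicates is not known, and no difference below carries a test. The lists hold no expression values against which the cell types could be checked, and do not separate the maternal from the paternal chromosome.

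Imprinted genes are expressed mainly or only from the maternal or from the paternal copy. They lie in clusters, each governed by an imprinting control region whose methylation differs between the parental chromosomes. At *H19* and *Igf2* this region binds the insulator protein CTCF on the unmethylated chromosome, while at *Peg3* it holds repeated sites for the factor YY1. *Igf2*, *Kcnq1* and *Igf2r* clusters are also known for long noncoding RNAs (*H19*, *Kcnq1ot1* and *Airn*) that accompany the silencing of neighbours.

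The sequences below are those on which the descriptions of *H19*, *Kcnq1* and *Peg3* rest. Sites were searched on both strands with a CTCF-type pattern of the *H19* control region, a second CTCF-type pattern closer to the general core of CTCF sites, which can overlap the first, and a YY1-type pattern. A match is a description of the letters and not a measured binding site. Capitals mark the match, and 15 bases of the reference genome (mm9 for mouse, hg19 for human) are shown on each side. Upstream of mouse *H19*, 3 matches of the first pattern lie 2166 to 3891 bp from the annotated start, all on the fragment from 149766154 to 149768378 of chromosome 7:
*H19*, mouse, chr7:149766199-149766242, minus strand: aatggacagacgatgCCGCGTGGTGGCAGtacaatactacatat
*H19*, mouse, chr7:149766654-149766697, minus strand: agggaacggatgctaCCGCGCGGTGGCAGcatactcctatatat
*H19*, mouse, chr7:149767924-149767967, minus strand: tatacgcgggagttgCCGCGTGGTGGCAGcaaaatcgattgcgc
The human *H19* bait, from 2005194 to 2023179 of chromosome 11, holds 2 matches of the same pattern. They count as intronic because the human annotation used starts *H19* at 2025782, outside the bait. Their place relative to the start was therefore not compared with that in mouse. The next fragment, which was also listed in a call, holds 3 more, and the 2 of the bait are:
*H19*, human, chr11:2021183-2021226, minus strand: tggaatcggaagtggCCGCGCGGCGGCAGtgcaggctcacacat
*H19*, human, chr11:2021995-2022038, minus strand: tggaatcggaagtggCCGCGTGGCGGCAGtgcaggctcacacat
The fragments of *Cdkn1c* and *Slc22a18*, called with *Kcnq1* in mESCs, hold 2 matches and 1 match of the second pattern:
*Cdkn1c* fragment, chr7:150649968-150650011, minus strand: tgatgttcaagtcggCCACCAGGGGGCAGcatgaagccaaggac
*Cdkn1c* fragment, chr7:150652386-150652429, minus strand: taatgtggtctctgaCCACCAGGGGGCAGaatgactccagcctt
*Slc22a18* fragment, chr7:150662763-150662806, plus strand: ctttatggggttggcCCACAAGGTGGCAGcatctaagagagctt
The mouse *Peg3* bait holds 7 YY1-type matches, of which the nearest to the start of the gene, the middle one and the farthest are shown:
*Peg3*, chr7:6682285-6682325, minus strand: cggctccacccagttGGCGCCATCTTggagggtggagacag
*Peg3*, chr7:6681147-6681187, minus strand: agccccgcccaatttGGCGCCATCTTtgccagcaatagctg
*Peg3*, chr7:6679997-6680037, minus strand: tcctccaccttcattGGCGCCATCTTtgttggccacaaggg

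Calls were spread unevenly over the genes. In mESCs *Peg3* had 32, *Grb10* 17, *Igf2* 12, *Igf2r* 9, *Kcnq1* and *Dlk1* 6 each and *Meg3* 2, while *H19*, *Peg10* and *Snrpn* had none. In GM12878 cells *MEG3* had 16, *IGF2R* 7, *H19* 6, *IGF2* 5, *DLK1* 4, *SNRPN* 2 and *GRB10* 1, and *KCNQ1*, *PEG10* and *PEG3* had none. By symbol, *Peg3* and *Kcnq1* thus had calls in mESCs only, *H19* and *SNRPN* in GM12878 cells only, and *Peg10* in neither. These counts depend on how the lists name fragments. Fragments overlapping the annotated gene, whatever their name, gave *Kcnq1* 17 pairs in mESCs and 32 in GM12878 cells, *Meg3* 13 and 14, and *Peg10* 3 and 0. *Peg3* had 28 and 0 in this way, *Igf2* 40 and 8, and *H19* and *Snrpn* 0 and 6 each. Over all symbols, 51.1% of the 17014 symbols with a call in mESCs also had one in GM12878 cells. Those symbols include mouse names that no human symbol matches, such as 4930415F15Rik and Gm12000, whereas every member has a human gene of the same name. The share is therefore no base rate for the members.

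**Figure D1:**
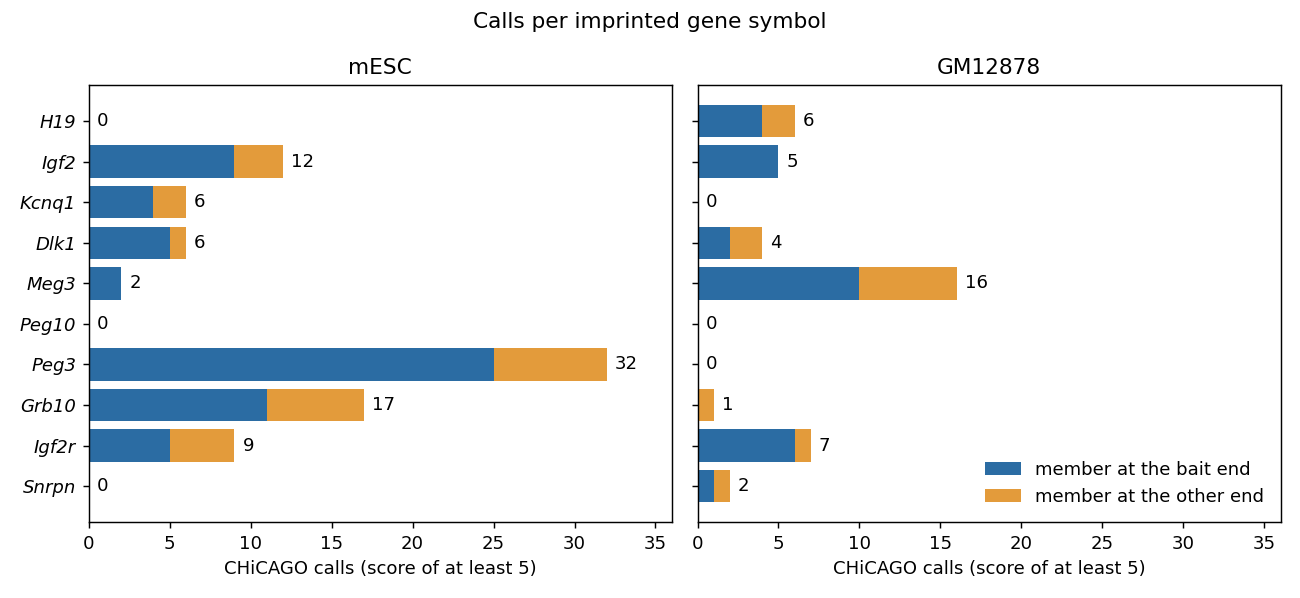
Number of calls (x axis, score of at least 5) for each imprinted gene symbol in mESCs and GM12878 cells, split by the end that carries the symbol. By symbol, *Peg3* leads in mESCs with 32 calls and has none in GM12878 cells, where *MEG3* leads with 16. Counts follow the names that the lists give to fragments.

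All 84 calls in mESCs were *cis*-chromosomal, and 0 of 84 *trans*-chromosomal calls allows a share of up to 3.57%, against 0.569% of all mESC calls. Their median distance was 301 kb, compared with 139 kb over all *cis*-chromosomal calls of mESCs. Their reads, given throughout as the authors' rounded mean per replicate, with replicates weighted by their size factors, ranged from 5 to 70 with a median of 9.5, against 13 over all calls. Between 250 and 500 kb, where 40 of the members' calls lie, their median of 9 reads equalled that of all 19011 mESC calls in the same range. Between 100 and 250 kb the medians were 10.5 reads for 24 members' calls and 12 for all calls. The CHiCAGO score, a soft-thresholded and distance-weighted −log of the p-value, had a median of 6.91 for the members and 6.62 for all calls. A score of at least 10 was reached by 8 of 84 calls, from *Grb10*, *Peg3* and *Kcnq1* (9.52%, Wilson 95% interval 4.91 to 17.7%, against 16.9% of all mESC calls). Intervals here cover counting error only and treat calls of 1 bait as independent, which they are not.

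**Figure D2:**
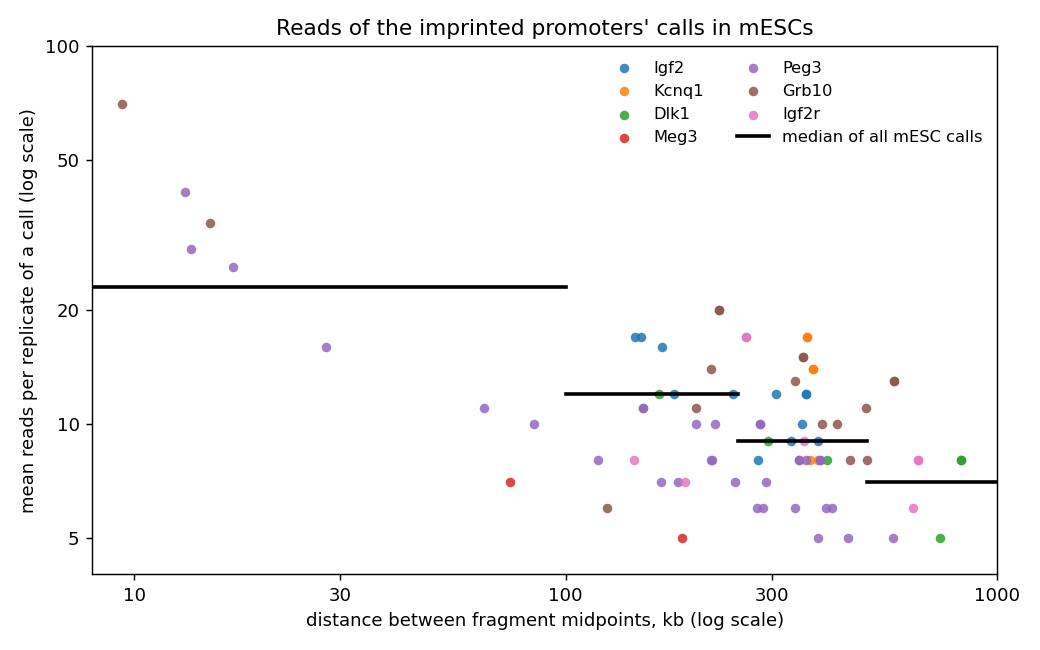
Reads per call, as the weighted mean over replicates (y axis, log scale), against the distance between fragment midpoints (x axis, kb, log scale) for the members' mESC calls under 1 Mb, with black lines for the median of all mESC calls in each distance class (23, 12, 9 and 7 reads). In each distance class the members lie on both sides of the line.

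Partner fragments overlapped an annotated transcription start in 37 of the 71 mESC pairs, an exon in 11, an intron in 4 and no gene in 19. Of the 37, 31 were themselves baits, which hold promoters by design. Among the 40 pairs whose other end was no bait, 6 partners overlapped a start, against 14.4% of all 64830 such pairs in mESCs. Bait-to-bait interactions made up 44 of 84 calls (52.4%, 41.8 to 62.7%), against 36.3% of all mESC calls, but a call kept for a symbol at its other end joins named fragments by construction. Of the 61 calls made from a member's own bait, 21 were bait-to-bait (34.4%, 23.7 to 47.0%). No call joined a member to another member. Of 31 bait-to-bait pairs in mESCs, 13 were called from both ends (41.9%, 26.4 to 59.2%), against 26.2% of all bait-to-bait pairs.

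In GM12878 cells the members' calls were also all *cis*-chromosomal, and 0 of 41 allows a share of up to 7.32%, against 0.31% of all calls there. Their median distance was 526 kb, compared with 174 kb over all calls, and their median of 11 reads compared with 16. The distance differed by cluster. *MEG3* and *DLK1*, with 16 and 4 of the 41 calls, had medians of 743 and 846 kb, *H19* and *IGF2R* 297 and 185 kb. *IGF2* had 458 kb, *GRB10* 138 kb (1 call) and *SNRPN* 1139 kb (2 calls). A score of at least 10 was reached by 7 of 41 calls, from *H19*, *IGF2R* and *MEG3* (17.1%, 8.53 to 31.3%, against 16.3% of all calls). Of the 28 calls from a member's own bait, 15 were bait-to-bait (53.6%, 35.8 to 70.5%), against 29.4% of all GM12878 calls. Of 21 bait-to-bait pairs, 7 were called from both ends (33.3%, 17.2 to 54.6%, against 18.5%).

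**Figure D3:**
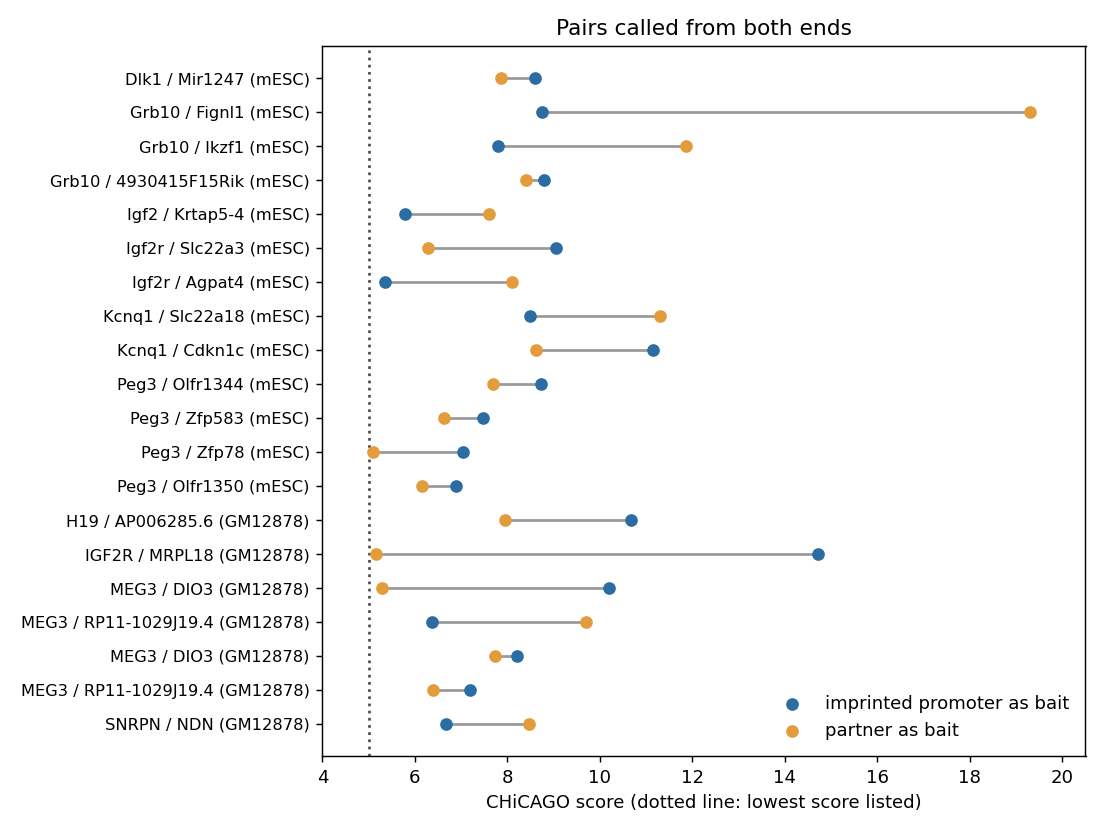
CHiCAGO score (x axis) of each fragment pair that was called from both ends, with the imprinted promoter as bait (blue) and with the partner as bait (orange), for 13 pairs in mESCs and 7 in GM12878 cells. A pair has the same reads from either end, yet the scores differ most for *Grb10* and *Fignl1* (8.75 and 19.3) and for *IGF2R* and *MRPL18* (14.7 and 5.17).

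At the *H19* and *Igf2* cluster, the *Igf2* bait (chromosome 7 of mm9, 149851068 to 149854754), which holds the start of a fetal growth factor gene, contacted 11 fragments in mESCs. All 11 lay downstream of *Igf2*, on the side of *H19* and beyond it, at 144 to 384 kb. Of the 5 member fragments in mESCs with at least 5 *cis*-chromosomal partners, *Igf2* was the only one with all of them on 1 side, as were 12.4% of the 7720 named fragments with as many. The highest scores belonged to neighbouring fragments without a symbol, from 149699524 to 149707014 (8.68, 17 reads, overlapping a start of *Tnnt3*) and from 149707015 to 149710131 (8.46, 17 reads, intergenic). An exon of 6330512M04Rik lay on the next highest, at 308 kb (8.18, 12 reads). *Tnnt3*, which encodes fast skeletal muscle troponin T, was called with *Igf2* at 167 kb on 16 reads with a score of 7.88. *Ctsd*, the gene of the lysosomal protease cathepsin D, was called at 279 kb on 8 reads with a score of 7.36. *Krtap5-4*, a keratin-associated protein gene, was called from both ends at 360.3 kb on 12 reads, with scores of 5.78 and 7.61. The fragment with the microRNA gene *Mir483*, which lies within *Igf2*, shared 8 of the 11 partners of the *Igf2* bait, 72.7% of them and 27.6% of its own 29.

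*H19*, a noncoding RNA gene, had no call in mESCs. Its start lies on the fragment from 149762082 to 149766153, and neither this fragment nor the next one, which carries the 3 CTCF-type matches printed above, was listed in any call. Whether they were targeted by the capture was not analysed here. Across it, the bait of *Nctc1*, a noncoding RNA gene, was called with the *Mir483* fragment at 95.7 kb on 23 reads with a score of 5.84. Of 9 listed neighbours of the cluster, 8 had a call in mESCs, against 63.5% of 22238 annotated protein-coding symbols, and 2, *Tnnt3* and *Ctsd*, were joined to *Igf2*.

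In GM12878 cells the *H19* bait had 5 partners at 109 to 312 kb, all downstream of it and away from *IGF2*. The highest score, 10.7, was that of a fragment named for *KRTAP5-6*, *FAM99B* and AP006285.6 (302 kb, 21 reads), which was also called from its own end (7.95). The adjoining intergenic fragment, at 291 kb, had 14 reads and a score of 10.2. *LSP1*, a leukocyte-specific actin-binding protein gene, was called at 139.9 kb on 15 reads with a score of 7.60 and, from another fragment, at 109 kb on 26 reads with a score of 6.11. The *IGF2* bait (chromosome 11 of hg19, 2155755 to 2164250) had 5 partners at 421 to 526 kb, again all downstream and beyond *H19*, the highest at 503 kb on 14 reads with a score of 9.56. The fragment from 1700165 to 1703677 was called with both *H19* (9 reads, score 5.47) and *IGF2* (11 reads, score 6.20). The human annotation used here starts *H19* and *IGF2* on other fragments than those the list names for them.

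*Kcnq1* encodes a potassium channel subunit and hosts the antisense noncoding RNA *Kcnq1ot1*. In mESCs its bait (chromosome 7, 150280646 to 150296462) had 4 partners, all downstream within 362 to 384 kb. *Cdkn1c*, the gene of a maternally expressed cell cycle inhibitor, was called on 17 reads with scores of 11.2 from *Kcnq1* and 8.61 from *Cdkn1c*. *Slc22a18*, a transporter gene, was called on 14 reads with scores of 8.48 from *Kcnq1* and 11.3 from *Slc22a18*. The remaining partners were fragments without a symbol beside *Cdkn1c* (8 reads, score 5.54) and in an intron of *Slc22a18* (8 reads, score 5.98). Both named partners hold the CTCF-type matches shown above. Across all members, 3 of 71 called fragments held a match in a 4-kb window (4.23%, 1.45 to 11.7%), the third being a partner of *Dlk1*, against 3.66% of all mESC other ends. In GM12878 cells it was 1 of 27 (3.70%, 0.657 to 18.3%), against 2.68%. Over whole fragments the shares were 4.23% against 4.46% in mESCs, and 2 of 27 (7.41%, 2.06 to 23.4%) against 4.06% in GM12878 cells. Of the members' own fragments in GM12878 cells, 3 of 8 held a match over their whole length, those of *H19* and *MEG3*, and 0 of 8 in the window. In mESCs it was 0 of 7 either way. The share over all baits was not analysed here.

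Other fragments of the *Kcnq1* gene without a symbol were also called with these genes in mESCs, so that the *Cdkn1c* fragment had 11 pairs with fragments of *Kcnq1*, the highest on 18 reads with a score of 13.4 at 293 kb. In GM12878 cells the fragment with the *KCNQ1* start was in no call and the symbol was not listed. Matched by position, 8 pairs joined *KCNQ1* to fragments overlapping *CDKN1C*, the highest at 358 kb on 14 reads with a score of 17.3, and 8 joined it to fragments of *SLC22A18*, the highest at 368 kb on 15 reads with a score of 12.9. *PHLDA2*, a placental growth restrictor gene, was reached in both lists, by 1 pair in mESCs (5 reads, score 5.63) and 3 in GM12878 cells (the highest 13 reads, score 10.4). Those 3 pairs reach a fragment named for both *PHLDA2* and *SLC22A18* and are among the 8 pairs of *SLC22A18*. Of 12 listed neighbours, 10 had a call in mESCs and 2 were joined to *Kcnq1* by symbol.

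At the *Dlk1* and *Meg3* cluster, *Dlk1* is a paternally expressed gene of a Notch-pathway ligand and *Meg3* a maternally expressed noncoding RNA. The *Dlk1* bait in mESCs (chromosome 12, 110687589 to 110696948) had 5 partners. Its highest score, 8.60, was with a fragment named for *Mir1247* at 823 kb on 8 reads, and the same pair had 7.86 from the other end. The annotation places *Dio3*, a thyroid hormone deiodinase gene, and its antisense *Dio3os* on that fragment. *Begain*, which encodes a postsynaptic protein, was the only partner upstream, at 403 kb on 8 reads with a score of 6.22. The others were AC152063.1, on a fragment overlapping *Rian* (164 kb, 12 reads, score 5.26), AC121784.5, overlapping *Mirg* (295 kb, 9 reads, score 5.81), and an intergenic fragment at 734 kb (5 reads, score 5.76).

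*Meg3* in mESCs was called with *Mir341* at 74.1 kb on 7 reads with a score of 5.78 and with *Mir667* at 186 kb on 5 reads with a score of 5.15, both in the microRNA and small nucleolar RNA array downstream. Baits of *Mir493* and *Mir382* had both of these partners among their own 8 each. Baits named for *Mir770* and *Mir673* lie inside the annotated mouse *Meg3* but do not carry its symbol, and were called with each other on 94 reads. By position, 13 pairs in mESCs and 14 in GM12878 cells overlapped the gene, and 2 and 12 of them carried its symbol. *DLK1* in GM12878 cells had 4 partners, all downstream at 704 to 910.3 kb, and the fragment named for *DIO3* was called at 837 kb on 10 reads with a score of 5.23. *MEG3* had 2 baits there, both inside the annotated gene. The outer end of the gene, taken here as its start, lies on another fragment that was in no call, and starts further inside it were not analysed. A fragment without a symbol inside the gene, from 101280755 to 101297760, was also called with *DIO3*, at 742 kb on 9 reads with a score of 5.68. The bait from 101311084 to 101318913 was called with *DIO3* on 12 reads (scores 10.2 and 5.30) and the bait from 101320467 to 101330591 on 16 reads (8.21 and 7.74), at 716 and 705 kb. The highest *MEG3* score, 13.01, was at 781 kb on 10 reads with a fragment overlapping an exon of a long noncoding RNA gene. RP11-1029J19.4 was called with both baits, at 779 kb on 11 reads (6.37 and 9.70) and at 789 kb on 8 reads. *DLK1* and the second *MEG3* bait shared 3 partners, 75.0% of those of *DLK1* and 37.5% of those of *MEG3*. By symbol, 1 of 8 listed neighbours was joined to a member in each list, *Begain* in mESCs and *DIO3* in GM12878 cells.

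*Peg3*, a paternally expressed zinc finger gene, had the most calls by symbol of the members in mESCs. Its bait (chromosome 7, 6661139 to 6684092) had 28 partners, 19 downstream and 9 upstream, at 13.1 to 574 kb, whereas the median over named fragments of mESCs was 4 and 4.08% had at least as many. The highest score, 12.7 on 41 reads, was that of a fragment in an exon of *Peg3* itself, 13.1 kb downstream. Upstream, 2 intergenic fragments reached scores above 10, at 221 kb (10.5, 10 reads) and at 201 kb (10.0, 10 reads), and downstream another had 9.74 at 359.8 kb on 8 reads. *Zim1*, a maternally expressed zinc finger neighbour, was called from its own bait at 27.9 kb on 16 reads with a score of 9.64. Pairs called from both ends joined *Peg3* to *Olfr1344* (10 reads, 8.72 and 7.68) and *Olfr1350* (11 reads, 6.90 and 6.15), which encode olfactory receptors, and to the zinc finger genes *Zfp583* (8 reads, 7.48 and 6.63) and *Zfp78* (8 reads, 7.04 and 5.09). *Olfr1348*, *Olfr1346* and *Zfp418* were called from 1 end, on 8, 7 and 5 reads. The *Usp29* bait, of a deubiquitinase gene that neighbours *Peg3*, shared 14 partners with it, 50.0% of those of *Peg3* and 46.7% of its own, and was not itself called with *Peg3*.

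The 7 YY1-type matches of the *Peg3* bait all lie in intronic sequence of the gene, 0.832 to 3.12 kb downstream of its start, and all on its sense strand. Windows of the same length, 22954 bp, centred on the 16265 baits of mESCs held at least 1 match in 445 cases (2.74%), and 1 window, that of *Peg3*, held as many as 7. The pattern had been chosen for *Peg3*, so the place of its bait among these windows is no independent finding. The human fragment with the *PEG3* start holds 4 matches and was in no call of GM12878 cells.

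*Grb10* encodes an adaptor protein that restrains insulin and growth factor signalling. Its bait (chromosome 11, 11934841 to 11941879) had 14 partners, 7 upstream and 7 downstream. *Fignl1*, a gene of DNA repair, gave the highest score of all members in mESCs, 19.3 from its own bait and 8.75 from *Grb10*, on 20 reads at 227 kb. *Ikzf1*, which encodes the lymphoid transcription factor Ikaros, was called at 355 kb on 15 reads with 11.9 from *Ikzf1* and 7.80 from *Grb10*. *Cobl*, an actin nucleator gene, was called on the upstream side at 426 kb on 10 reads with a score of 5.40 from its own bait, and its bait shared 4 of the 14 partners. An intergenic fragment upstream at 497 kb had 11 reads and a score of 9.23. The longest call joined *Grb10* to 4930415F15Rik at 576 kb on 13 reads (8.79 and 8.41), on a fragment that overlaps *Zpbp*. The call on the most reads among all members in mESCs, 70, reached a fragment of *Grb10* itself 9.37 kb away with a score of 5.09. A U1 small nuclear RNA gene 15.0 kb upstream was called on 34 reads with a score of 12.2. Of 4 listed neighbours, *Fignl1*, *Ikzf1* and *Cobl* were thus joined to *Grb10* by symbol, while *Ddc* was overlapped by the fragment of *Fignl1* and by a partner without a symbol (14 reads, score 7.82).

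In GM12878 cells *GRB10* had 1 call, with *SNORA4* at 138 kb on 10 reads with a score of 5.20. Fragments within *GRB10* that carry no symbol were called with *ZPBP*, *C7orf72* and AC020743.2. The highest was *ZPBP* at 581 kb on 14 reads with a score of 13.3, beside 576 kb for the mouse *Grb10* and *Zpbp* pair.

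*Igf2r* encodes the receptor that clears IGF2, and it is overlapped by the antisense noncoding RNA *Airn*. Its bait in mESCs (chromosome 17, 12961819 to 12965392) had 7 partners, 4 downstream and 3 upstream. *Slc22a3*, an organic cation transporter gene imprinted in placenta, had the highest score, 9.05 from *Igf2r* and 6.29 from *Slc22a3*, on 17 reads at 262 kb. *Agpat4*, a lipid acyltransferase gene, was called at 654 kb on 8 reads (5.35 and 8.11). A fragment with an exon of *Plg*, the plasminogen gene, was called at 356 kb on 9 reads with a score of 6.91. On the upstream side lay *Tcp1*, a chaperonin subunit gene (144 kb, 8 reads, score 5.13), *Acat2*, a gene of thiolase activity (189 kb, 7 reads, score 5.65), and *Thbs2*, a thrombospondin gene, at 1867 kb (6 reads, score 5.50), the longest call of any member in mESCs. *Slc22a3* was also called with 4 fragments inside *Igf2r* that carry no symbol, on 12 to 15 reads.

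In GM12878 cells the *IGF2R* bait had 6 partners, all upstream within 169 to 210.0 kb. *TCP1* and *MRPL18* lay on the partner with the highest score, 14.7 on 18 reads at 181 kb, which scored 5.17 from its own end. A further *TCP1* fragment had 18 reads and 12.1, *PNLDC1* 14 reads and 10.4, and a fragment named for *ACAT2*, at 210.0 kb, 13 reads and 9.82. The annotation places an exon of *SOD2* and not *ACAT2* on that last fragment. The partners that overlap *ACAT2* had scores of 6.93 (10 reads) and 5.57 (9 reads). The bait of *SOD2* and *WTAP* shared all 6 of these partners, 85.7% of its own 7. *Tcp1* and *Acat2* were the only partner symbols that a member had in both cell types, and in both they lay upstream of the receptor gene at 144 to 210.0 kb. *Slc22a3* was joined to *Igf2r* in mESCs and had no call in GM12878 cells.

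**Figure D4:**
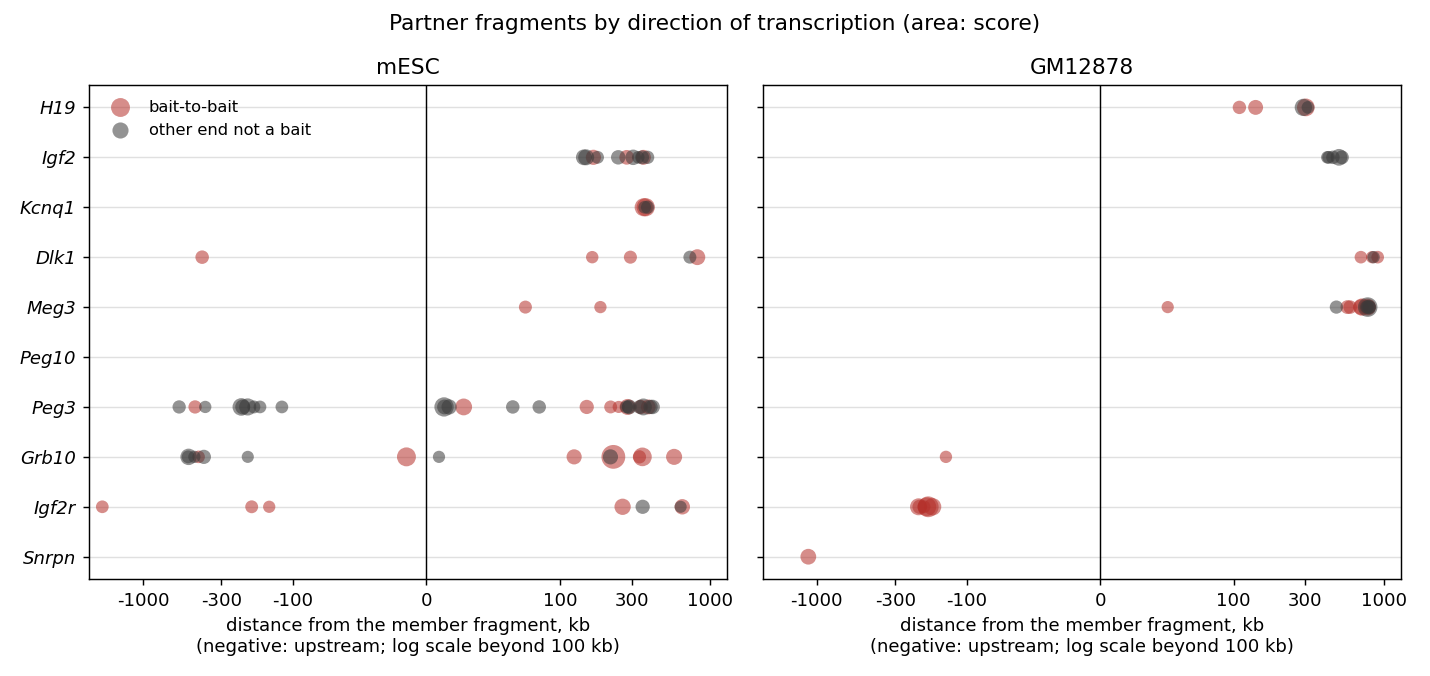
Distance of each partner fragment from the member's fragment (x axis, kb, log scale beyond 100 kb on either side), with negative values upstream of the member in its direction of transcription, for mESCs and GM12878 cells. Point area follows the score and colour separates bait-to-bait pairs. In GM12878 cells the partners of *H19*, *IGF2*, *DLK1* and *MEG3* all lie downstream and those of *IGF2R* all upstream.

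In GM12878 cells, all 4 member fragments with at least 5 *cis*-chromosomal partners (*H19*, *IGF2*, 1 of *MEG3* and *IGF2R*) had them on 1 side only, as did 21.6% of 7021 named fragments there.

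*Peg10*, a retrotransposon-derived gene needed for the placenta, had no call by symbol in mESCs. Its start lies on a fragment (chromosome 6, 4695585 to 4702115) that the list names for *Sgce*, the adjacent imprinted gene of epsilon-sarcoglycan. That fragment was called with *Casd1*, a sialic acid acetyltransferase gene, at 151 kb on 13 reads with a score of 11.03. It was also called with *Asb4* at 635 kb (6 reads, score 7.35) and with *Col1a2*, a collagen gene, at 242 kb (7 reads, score 6.14). The human fragment with the *PEG10* start was in no call.

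*Snrpn* encodes a splicing protein and lies in the Prader-Willi cluster. The start used here is the outer end of the annotated gene, and which fragment holds the control region of the cluster was not analysed. In mESCs the fragment with this start of *Snrpn* (chromosome 7, 67280590 to 67297653) was in no call, and whether it was targeted by the capture was not analysed here. The same holds for the fragments with the human starts of *KCNQ1*, *PEG3* and *PEG10*. Of 8 listed neighbours, *Ndn* and *Magel2* had calls, with each other at 28.7 kb on 22 reads with a score of 5.23, and with fragments without a symbol at 119 to 171 kb. In GM12878 cells *SNRPN* was called with *NDN*, a gene of the MAGE family, at 1139 kb on 8 reads, with scores of 6.68 from *SNRPN* and 8.46 from *NDN*. This was the longest call of any member in GM12878 cells.

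The mESC calls were also set against the Hi-C bin pairs. Of 83 members' calls under 1 Mb, 1 lay within a 25-kb bin pair with a false discovery rate (FDR) under 0.05 (1.20%, 0.213 to 6.51%), against 11.6% of the 97826 mESC calls of that range. Among calls with a score under 10 it was 1 of 75 (1.33%, 0.236 to 7.17%), against 8.39%. Weighted to the distances of the members' calls, the share over all calls was 9.71%, or 8.06 calls of 83. The 1 call joined *Igf2* to the fragment from 149519803 to 149520895, 333 kb away (9 CHi-C reads, score 5.37), in a bin pair with 32 Hi-C reads where 7.61 were expected. The pair of neighbouring fragments with the highest *Igf2* scores shared a bin pair with 23 reads and 8.35 expected (FDR 0.678). All 6 *Kcnq1* calls fell in 1 bin pair with 11 reads and 2.81 expected (FDR 1). No call of *Peg3*, *Grb10*, *Dlk1*, *Meg3* or *Igf2r* lay in any listed bin pair, and the pair of *Igf2r* and *Thbs2* lay in none of the listed 1-Mb bin pairs. The bins of *Peg3*, *Grb10*, *Meg3* and *Igf2r* were in no listed 25-kb pair with any other bin. Their 32, 17, 2 and 8 calls under 1 Mb could therefore not lie in one, which limits the shares of the 83 calls. In all, 9 of 83 calls lay in a listed bin pair of any FDR (10.8%, 5.81 to 19.3%), against 29.9% of all calls.

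Other imprinted genes were counted only, apart from *Cdkn1c*, which is also a listed neighbour of *Kcnq1*. Of 19 such symbols, *Cdkn1c* among them, 15 had a call in mESCs, on 2 to 52 fragment pairs each. In GM12878 cells 14 had one, on 1 to 23 pairs. Over all clusters, 42 of 61 listed neighbours had a call in mESCs and 41 in GM12878 cells, and 10 and 3 were joined to a member. Of the protein-coding symbols in the annotation, 63.5% had a call in mESCs and 65.4% in GM12878 cells, where symbols that have since been renamed stay unmatched.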

How the data were processed

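The read pairs had been mapped by the authors to mm9 or hg19 (Bowtie 1.1.0, per the labels), filtered and called with CHiCAGO over replicates together. The deposited lists give each call a score of at least 5 and a read number, which is a rounded mean per replicate, each replicate weighted by its size factor, and was handled as a score, not as a raw count. The Hi-C lists of the authors (HOMER 4.7, per the labels) hold the read count, the expected signal and an FDR p-value per bin pair, and 10 further value columns were not used.

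Names were split at semicolons, commas and vertical bars and stripped of transcript numbers. A call was within a bin pair when both fragment midpoints lay in its bins. All listed fragments (100%) matched *Hin*dIII fragments of the reference. Genes overlapping fragments came from GENCODE annotation of the same builds. Raw depth per library was not analysed here. Shares carry Wilson 95% intervals, and a 0 of *trans*-chromosomal calls is given as 3 counts. The code (Python 3.11.15, pandas 2.3.3, numpy 2.4.6) was tested on simulated lists.

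Named partners are, per member, those of the 5 highest scores, the longest call, calls joining members or found in both cell types, with some of the baits sharing at least 2 partners. The members, gene lists and motifs were chosen with earlier results of these data known. Matches by position were added after the lists had been seen, and so were *Zpbp*, *C7orf72* and the lower-scoring partners named beyond this rule. Alternatives were a score or read minimum of 10, pairs counted once, the browser list, the bait end only, other Hi-C settings and whole fragments for motifs.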

Additional observations from a re-analysis of the deposited data

How the results depend on the processing

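Fragment pairs counted once, the browser list and a member symbol on the bait end only left the number of members with a call in mESCs at 7. A score of at least 10 left 8 imprinted calls and 3 members in mESCs, and 7 calls and 3 members in GM12878 cells. With at least 10 reads there were 42 calls in mESCs. The median distance in mESCs was 224 kb at a score of at least 10 and 236 kb with at least 10 reads, and the median reads were 16 and 13. The bait-to-bait share was 34.4% with the symbol on the bait end only. The 25-kb Hi-C share was 0% at a score of at least 10 (Wilson 95% interval up to 32.4%) and with at least 10 reads (up to 8.38%). It was 10.8% with every listed bin pair. Partner symbols shared by both cell types, 2 as reported, were 0 at a score of at least 10, with at least 10 reads and on the bait end only, 5 when partners were named by every overlapping gene, and 11 when any fragment of the annotated gene also stood for the member. The CTCF-type share was 25.0% at a score of at least 10 (2 of 8 fragments, 7.15 to 59.1%), both fragments being partners of *Kcnq1*. The share of all other ends at that score was not analysed here. No paired analysis was possible because the authors called the replicates jointly, and for the same reason no replicate could be left out. Of the recomputed values, 37 stayed within the 95% interval of a share or median, or within 1.5 times a count, and 19, all given above, did not. The reads behind a call were as low as 4 on average per replicate, and whether fragments without a call were captured was not analysed here, so a missing call does not show a missing contact.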
